A study of Mus musculus with 2 samples.

Results

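The genes of MHC class I antigen presentation were followed through every cell class of transgenic mouse prostate tissue profiled by single-cell RNA sequencing. The 10 genes were taken by name, with no limit on their values, out of 19320 features in the table: the heavy chains H2-K1, H2-D1 and H2-Q10, the light chain B2m, the peptide transporter subunits Tap1 and Tap2, the loading factor Tapbp (tapasin), the immunoproteasome subunits Psmb8 and Psmb9, and the transcriptional activator Nlrc5. Each of them had a row in the table, and all 10 are described.

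MHC class I molecules carry short peptides from proteins made inside a cell to its surface, where CD8 T cells read them. The proteasome cuts the proteins, the transporter moves the peptides into the endoplasmic reticulum, tapasin helps to load them onto a heavy chain paired with beta-2-microglobulin, and the complex then travels to the surface. Interferon gamma raises most genes of this pathway and replaces the catalytic subunits of the standard proteasome by those of the immunoproteasome, and loss of class I expression is a known feature of prostate cancers.

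The mice were R26mTmG/hAR:Osr1Cre/+, on a mixed background of C57BL/6 and 129S1/SvImJ. In them Cre made from the Osr1 locus switches on a human androgen receptor transgene (hARtg) and a membrane-bound green fluorescent protein (mGFP) together, and both then mark all descendants of cells that once expressed Osr1, whatever their later type. The features named ARQ and EGFP were taken as the transcripts of hARtg and mGFP. The labels list 1 library from prostates with intraepithelial neoplasia (PIN) and 1 from prostatic adenocarcinoma tissue (PCa) of older mice, and both carry the transgene, so the series holds no transgene-free control. The labels do not tie the 2 endings of the cell barcodes to PIN or PCa. The cells were therefore described as barcode set 1 and barcode set 2, and tissue, age, animal and library cannot be told apart between the sets.

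After removal of called doublets, 6177 cells of set 1 and 9235 cells of set 2 remained. Cells were assigned by scores of marker genes, and each class was called by its markers, as in "luminal-like". Luminal-like cells numbered 1647 and 7703 in sets 1 and 2, basal-like cells 1413 and 232, proximal or urethral luminal-like cells 1036 and 150, fibroblast-like cells 163 and 308, endothelium-like cells 40 and 165, and leukocyte-like cells 1109 and 267. Smooth muscle-like cells numbered 12 and 61, 742 and 270 cells were epithelium without a subtype and 15 and 79 fell into no class, and the cells without a subtype or class are not described. Summed levels of the 6 luminal markers were 17293 and 16415 CPM (UMIs per 1000000 UMIs) in the luminal-like cells of sets 1 and 2, those of the 6 basal markers 11843 and 9024 CPM in basal-like cells, and those of the 7 leukocyte markers 7421 and 5157 CPM in leukocyte-like cells, with no marker of its own list at 0 in these classes. The 7 epithelial markers were lower in set 2. They stood at 4579 and 1343 CPM in luminal-like, 6409 and 4403 in basal-like and 7213 and 5269 in proximal or urethral luminal-like cells. In luminal-like cells the 5 proximal or urethral markers were at 1645 and 357 CPM. The part of these marker differences in the ratios between the sets was not tested. Median depth per cell ran from 3811 UMIs (unique molecular identifiers, each marking 1 captured RNA molecule) in leukocyte-like cells of set 1 to 28648 in its luminal-like cells. The sets shared 67 barcodes. CPM come from the summed UMIs of all cells in a class, so that deep cells weigh more. With 1 library per set there was no replicate check and no p-value. Intervals are exact 95% Poisson or binomial intervals, which cover counting error only. A gene was counted as higher or lower at a ratio of at least 1.5, whatever its interval, and ratios follow a value as log2 with their interval.

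The letters of known response elements were first looked for upstream of the genes, because heavy chain genes are the textbook targets of interferon and NF-kappaB signals. Of the 10 genes, 8 had a promoter in the RefSeq table (mouse build GRCm38.p6). In the 250 bases before the start site, GAANNGAAA (an interferon response element core) was found in H2-K1, H2-D1 and H2-Q10 when both strands were searched, against 6.34% of 27025 promoters. GGGNNTTCC (a kappa B core) was found in H2-K1 and H2-D1, against 4.88% of promoters, and no match lay in the H2-Q10 window. TTCNNNGAA (a gamma-interferon activated site) was found in Psmb8 alone of the 8, against 7.18% of promoters. The matches did not overlap one another. Each pattern has a fixed spacing, and a window without a match can hold similar letters at another spacing. The B2m window, which had no match, held gaaactgaaa and gggaaagtccc. Other spacings were not searched. The stretch of 30 bases that ends with the interferon-type letters is shown for the 3 heavy chain genes, read 5′ to 3′ on the strand of the gene, with matched letters in capitals, the last of which match on the opposite strand.
H2-K1: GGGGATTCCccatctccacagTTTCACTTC
H2-D1: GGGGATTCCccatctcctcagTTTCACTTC
H2-Q10: gaggactccccatctccccagTTTCACTTC
These stretches lie at chr17:34000429-34000458 (minus strand), chr17:35262923-35262952 (plus strand) and chr17:35469913-35469942 (plus strand), from base -111, -171 and -176 before the start site. For H2-K1 this is the first of 2 annotated starts, and the stretch begins at base -125 of the other. Counted from 1 at the left end and with the base of H2-D1 written first, H2-K1 differed by T18A alone, and H2-Q10 by G2A, T6C and T18C. A match of letters is a description of the sequence and not a bound site.

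The genes sit on 3 chromosomes of GRCm38.p6. B2m lies on chromosome 2 (122147687 to 122153082) and Nlrc5 on chromosome 8 (94434335 to 94527272). The other 8 lie on chromosome 17, in the major histocompatibility complex, where Tapbp (33919478 to 33929290), H2-K1 (33996012 to 34000619), Psmb9 (34182030 to 34187330), Tap1 (34187556 to 34197225), Psmb8 (34198195 to 34201454), Tap2 (34204479 to 34216321), H2-D1 (35263094 to 35267497) and H2-Q10 (35470089 to 35474563) follow in this order.

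In set 1, the light chain and H2-K1 were higher in luminal-like than in basal-like epithelium. B2m, which every class I molecule needs to reach the surface, stood at 11045 CPM (11017 to 11074) in luminal-like cells, 6718 (6689.8 to 6747) in proximal or urethral luminal-like cells and 3016 (2992 to 3041) in basal-like cells of set 1. Its level was 4199 (3966 to 4444) in endothelium-like, 3898 (3795 to 4003) in fibroblast-like and 2979.7 (2936 to 3024) in leukocyte-like cells. The intervals of basal-like and leukocyte-like cells overlapped, as did those of endothelium-like and fibroblast-like cells, and luminal-like cells stood above all other classes.

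H2-K1, a classical heavy chain, stood at 6618 CPM (6596 to 6640.1) in luminal-like and 6482 (6453 to 6509.8) in proximal or urethral luminal-like cells. It reached 4795 (4739 to 4851) in leukocyte-like, 4429.7 (4189 to 4680.2) in endothelium-like, 4267 (4159 to 4377) in fibroblast-like and 3382 (3356 to 3408) in basal-like cells. H2-D1, the other classical heavy chain, had a different order, with 5282 CPM (5162 to 5404) in fibroblast-like, 4879.6 (4627 to 5142) in endothelium-like, 4787 (4762 to 4811) in proximal or urethral luminal-like, 4188 (4136 to 4239.8) in leukocyte-like, 3557 (3541 to 3573) in luminal-like and 3531 (3505 to 3558) in basal-like cells. The neighbours luminal-like and basal-like did not differ beyond counting error for H2-D1, nor did endothelium-like and proximal or urethral luminal-like cells.

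H2-Q10, a nonclassical heavy chain known as a secreted molecule, was concentrated in luminal-like cells of set 1, at 756 CPM (748 to 763). Proximal or urethral luminal-like cells held 56.2 (53.6 to 58.9), and the other classes lay between 16.5 CPM in basal-like and 41.9 CPM in endothelium-like cells. Heavy chain genes resemble one another closely, and reads that fit more than 1 of them could have been dropped or misplaced in the counting, so the level of each single heavy chain is less certain than that of the other genes.

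The transporter, tapasin and immunoproteasome genes did not have the order of B2m in set 1. Tap1 was 419 CPM (347 to 500.5) in endothelium-like, 222 (210.4 to 234) in leukocyte-like and 222 (198 to 248) in fibroblast-like cells, against 76.8 (73.8 to 80.0) in proximal or urethral luminal-like, 75.6 (73.2 to 78) in luminal-like and 38.3 (35.6 to 41.2) in basal-like cells. Tap2, its partner in the same transporter, ran from 31.9 CPM (29.4 to 34.5) in basal-like to 206 (157 to 265) in endothelium-like cells, with 65.2 (63 to 67.4) in luminal-like and 98.2 (90.4 to 106) in leukocyte-like cells. Tapbp ran from 181 CPM (171 to 192) in leukocyte-like to 509 (473 to 548) in fibroblast-like cells, and luminal-like cells held 310.2 (305 to 315). Thus leukocyte-like cells, taken as 1 class, lay above the epithelial classes for the transporter and lowest for tapasin. Their subclasses differed in Tapbp. It was 118 CPM in Cd8 T-cell-like cells, 124 in T-cell-like cells without Cd8 transcripts and 154 in innate-like lymphocytes. Macrophage-like cells held 316 CPM, C1q-negative myeloid-like cells 360 and B-cell-like cells 410.

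Psmb8, a catalytic subunit of the immunoproteasome, stood at 669.7 CPM (578 to 771) in endothelium-like, 554 (535 to 573) in leukocyte-like, 369 (363 to 376) in proximal or urethral luminal-like, 303 (275 to 333) in fibroblast-like, 296 (291 to 300.3) in luminal-like and 108 (104 to 113) in basal-like cells. The intervals of fibroblast-like and luminal-like cells overlapped. Psmb9, another catalytic subunit, was 173 CPM (162 to 183) in leukocyte-like, 114 (111 to 117) in luminal-like and 19.9 (18 to 22) in basal-like cells. Nlrc5, the main activator of class I promoters, was detected sparsely, from 4.88 CPM (3.95 to 5.98) in basal-like to 22.6 (19 to 26.8) in leukocyte-like and 41.9 (21.6 to 73.1) in endothelium-like cells.

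Set against luminal-like cells of the same set, basal-like cells of set 1 had 8 of 10 genes lower and 0 higher, where 36% of all genes with at least 10 CPM over both groups were lower and 21.1% higher. This share of all genes at the same limit is the background of a count. The 10 genes themselves were counted at any level, also under 10 CPM. The median log2 ratio was -1.01 for the 10 genes and -0.15 for all genes. In leukocyte-like cells of set 1, 5 genes were higher (background 31.4%) and 3 lower (background 34.4%), so the 10 genes divided between these classes. Fibroblast-like cells had 4 higher (background 17.1%) and 4 lower (background 44.9%), and proximal or urethral luminal-like cells 0 higher (background 10.5%) and 2 lower (background 14.1%). The 5 genes higher in leukocyte-like cells were Tap1, Tap2, Psmb8, Psmb9 and Nlrc5, and the 3 lower ones H2-Q10, B2m and Tapbp. Tap2 (log2 0.59, 0.46 to 0.72) and Psmb9 (log2 0.60, 0.50 to 0.69) lay close to the limit, and 3 genes were higher when classes came from clusters.

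Among leukocyte-like cells of set 1, Cd8 T-cell-like cells (464 cells) held 4989.7 CPM of H2-K1 and 584 CPM of Psmb8, T-cell-like cells without Cd8 transcripts (200 cells) 5245 and 552 CPM, and innate-like lymphocytes (156 cells) 6146 and 451 CPM. Macrophage-like cells (42 cells) held 3763 CPM of H2-K1 and 244 CPM of Psmb8. C1q-negative myeloid-like cells (41 cells) had 944 CPM (869 to 1025) of Psmb8 and 327 (283 to 375) of Psmb9, above the intervals of the T-cell-like and macrophage-like cells.

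**Figure D1:**
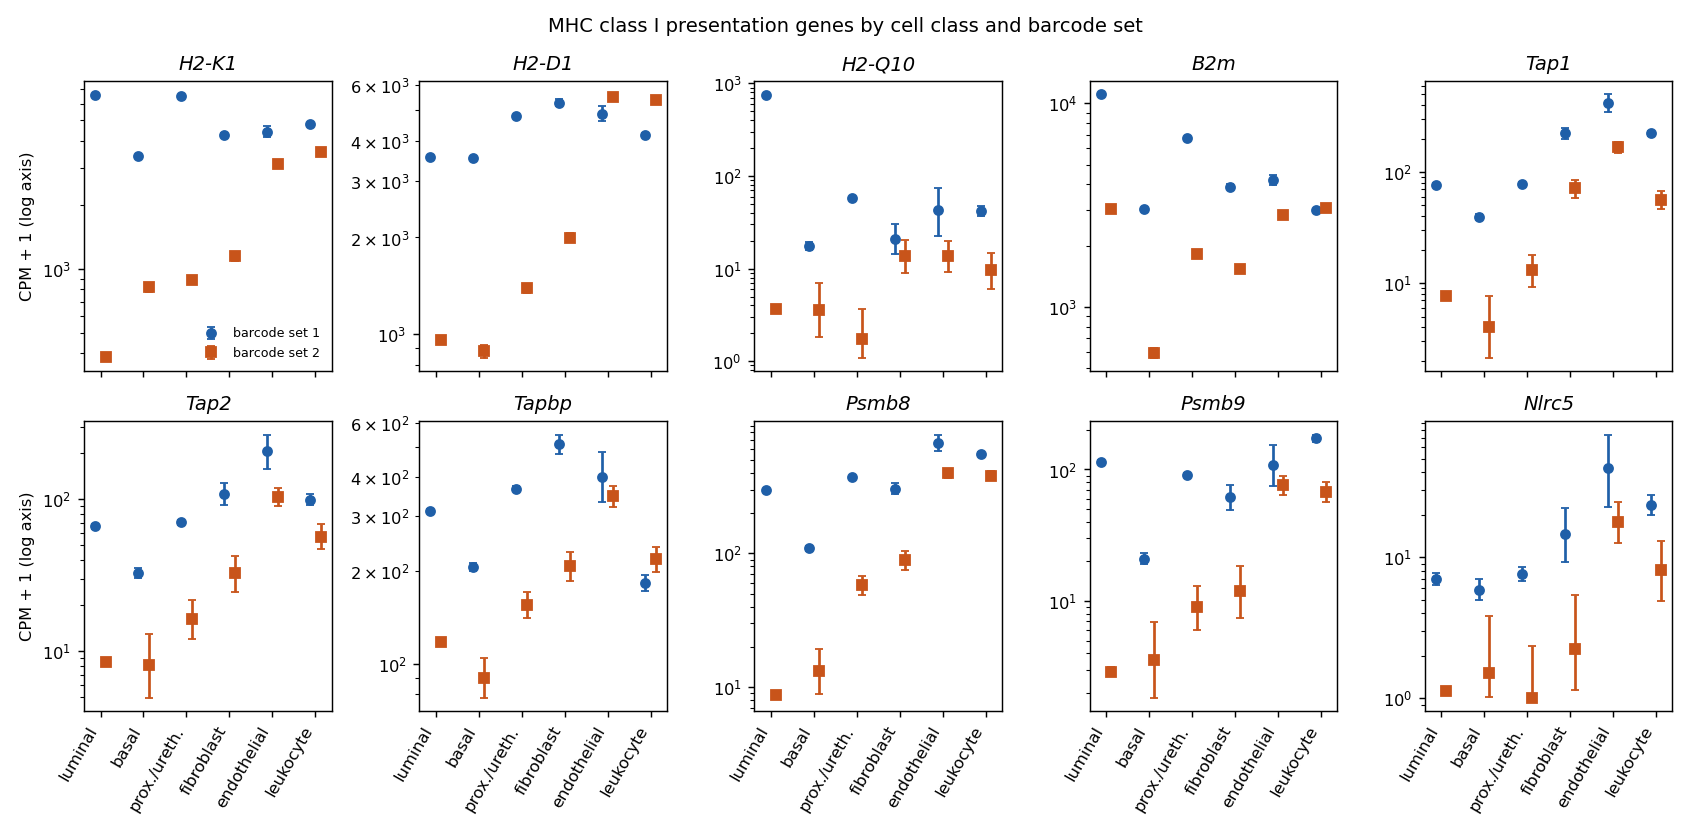
Level of each of the 10 genes in 6 cell classes. The y axis is CPM + 1 on a log axis, with its own range in every panel, circles are barcode set 1 and squares barcode set 2, and bars are exact 95% Poisson intervals. In luminal-like, basal-like, proximal or urethral luminal-like and fibroblast-like cells the squares lie below the circles, while for H2-D1 the squares of endothelium-like and leukocyte-like cells lie above them. The squares of leukocyte-like cells also lie above the circles for Tapbp and, within counting error, for B2m.

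The pathway was lower in set 2 than in set 1 throughout the epithelium. In luminal-like cells H2-K1 was 383 CPM (380.1 to 386) in set 2 against 6618 CPM in set 1, a log2 ratio of -4.11 (-4.12 to -4.1). H2-D1 was 956 against 3557 CPM, a log2 ratio of -1.9 (-1.91 to -1.89). B2m was 3017 against 11045 CPM (log2 -1.87, -1.88 to -1.87). The heavy chain H2-K1 thus had a log2 ratio lower than those of H2-D1 and B2m by more than counting error. Within luminal subgroups, described below, B2m went both ways. Cells with Krt6a and Clu held 9087 CPM in set 2 and 7441 CPM in set 1, and Tgm4 cells 3640 and 6740 CPM. H2-K1 was lower in set 2 in both, at 521 against 5502 CPM and 389 against 3627 CPM. The part of subgroup make-up in the ratios was not tested.

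H2-Q10 had the lowest ratio of the 10 genes, at 2.69 CPM in set 2 against 756 CPM in set 1 and a log2 ratio of -8.14 (-8.27 to -8.0). It was counted in 450 UMIs over 7703 luminal-like cells of set 2. In Msmb-expressing cells, a luminal subgroup described below, H2-Q10 was 1771 CPM in set 1 and 368 CPM in set 2. These cells numbered 534 of 1647 luminal-like cells in set 1 and 25 of 7703 in set 2. The part of this share in the ratio was not tested. Of the peptide transporter, Tap1 was 6.67 against 75.6 CPM (log2 -3.5, -3.6 to -3.41) and Tap2 7.55 against 65.2 CPM (log2 -3.11, -3.2 to -3.02). Tapbp differed least among the 10 genes, with 117 against 310.2 CPM and a log2 ratio of -1.41 (-1.44 to -1.38).

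The immunoproteasome subunits stood apart from the standard subunits that they replace. Psmb8 was 7.72 CPM in luminal-like cells of set 2 against 296 CPM in set 1 (log2 -5.26, -5.34 to -5.18), and Psmb9 1.91 against 114 CPM (log2 -5.9, -6.07 to -5.74). Psmb10, the remaining catalytic subunit of the immunoproteasome, was 6.8 against 82.3 CPM (log2 -3.6, -3.69 to -3.5). By contrast the standard catalytic subunits were at similar levels, Psmb5 at 319.8 against 284 CPM (log2 0.17, 0.15 to 0.20), Psmb6 at 227 against 319 CPM (log2 -0.49, -0.52 to -0.46) and Psmb7 at 135 against 139 CPM (log2 -0.03, -0.07 to 0.00). Nlrc5 was counted in 20 UMIs, or 0.119 CPM (0.0729 to 0.184), in set 2 against 6.0 CPM in set 1 (log2 -5.65, -6.38 to -5.0).

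In all, 10 of the 10 genes were at least 1.5 times lower in luminal-like cells of set 2, where 25.5% of all 7145 genes with at least 10 CPM were lower. The median log2 ratio was -3.81 for the 10 genes and -0.13 for all genes. The same count was 10 of 10 in basal-like cells (background 13.1%), 10 of 10 in proximal or urethral luminal-like cells (15.2%) and 10 of 10 in fibroblast-like cells (11.8%). Nlrc5, without a UMI in proximal or urethral luminal-like cells of set 2, was counted there by its bound. No gene of the 10 was higher in any of these 4 classes, where 18.2%, 6.55%, 9.65% and 15.1% of all genes were, in the same order. The last 3 classes had median log2 ratios of -2.52, -2.63 and -1.71, where all genes had -0.02, -0.08 and 0.07.

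In basal-like cells, H2-K1 was 819.5 CPM (779.9 to 861) in set 2 against 3382 CPM in set 1 (log2 -2.05, -2.12 to -1.97), and B2m 594 (561 to 629) against 3016 CPM (log2 -2.34, -2.43 to -2.26). H2-K1 differed less between the sets in basal-like than in luminal-like cells, and the intervals of these log2 ratios did not overlap. B2m differed more in basal-like cells (luminal-like log2 -1.87, -1.88 to -1.87). So did H2-D1, at -2.0 (-2.07 to -1.93) in basal-like and -1.9 (-1.91 to -1.89) in luminal-like cells. In fibroblast-like cells, H2-K1 was 1142 (1091 to 1195) against 4267 CPM (log2 -1.9, -1.98 to -1.83) and Psmb8 87.7 (74 to 103) against 303 CPM (log2 -1.79, -2.07 to -1.51). The interval of H2-Q10 in fibroblast-like cells, -0.65 (-1.54 to 0.22), included no difference.

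In leukocyte-like and endothelium-like cells the classical heavy chains and B2m differed by less than 1.5 times between the sets. In leukocyte-like cells B2m was 3062 CPM (2985 to 3141) in set 2 against 2979.7 (2936 to 3024) in set 1, H2-D1 5361 (5259 to 5464) against 4188 (4136 to 4239.8) and H2-K1 3534 (3451 to 3619) against 4795 (4739 to 4851). Here 5 of 10 genes were lower in set 2, namely H2-Q10, Tap1, Tap2, Psmb9 and Nlrc5, against a background of 51%, a share close to that of all genes. The leukocyte-like cells of set 1 were mostly lymphocytes and those of set 2 mostly macrophage-like (191 of 267 cells), and the part of this difference in the ratios was not tested. Within macrophage-like cells, with 191 and 42 cells in sets 2 and 1, H2-K1 was 3766 (3670.1 to 3865) against 3763 (3583 to 3950.4) CPM and B2m 3253 (3164 to 3345) against 3251 (3084 to 3426) CPM.

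Tap1 was lower in macrophage-like cells of set 2, at 55.8 (44.6 to 68.9) against 208 (167 to 255) CPM, whereas Psmb8 was higher, at 373 (343 to 405) against 244 (200.1 to 296) CPM. In all, 3 of the 10 genes were lower (background 18%) and 2 higher (background 24.8%) in macrophage-like cells of set 2. In endothelium-like cells (165 and 40 cells) H2-D1 was 5501 (5396 to 5607) in set 2 against 4879.6 (4627 to 5142) CPM, H2-K1 3132 (3053 to 3213) against 4429.7 (4189 to 4680.2) CPM and Tap1 167 (149 to 186) against 419 (347 to 500.5) CPM, and 5 of 10 genes were lower (background 12.9%). The limit of 50 cells on each side was relaxed to 30 for these classes after the data were seen.

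Levels of the markers of other classes differed between the sets. The 6 fibroblast markers stood at 2617 and 1208 CPM in basal-like cells of sets 1 and 2, with 0 and 2 of them at 0. In luminal-like cells the fibroblast markers stood at 122 and 219 CPM. The 7 leukocyte markers stood at 38.0 and 6.99 CPM in luminal-like cells of sets 1 and 2, 27.8 and 17.9 CPM in basal-like, 119 and 90.3 CPM in proximal or urethral luminal-like, 913 and 334 CPM in fibroblast-like and 1821 and 1187 CPM in endothelium-like cells. From 0 to 5 of the 7 markers were at 0 in these groups, and the 6 luminal markers went from 621 CPM in set 1 to 2499 CPM in set 2 in fibroblast-like, from 219.7 to 1330 CPM in endothelium-like and from 353 to 799.7 CPM in leukocyte-like cells, with 0 to 2 of the 6 at 0. Srgn, 1 of the 7 leukocyte markers, alone stood at 92.7 and 87.4 CPM in proximal or urethral luminal-like cells of sets 1 and 2. Ptprc and Laptm5 stood at 55.8 and 34.9 CPM in endothelium-like cells of set 1 and at 0 and 2.11 CPM in those of set 2. The sum of the 7 is thus not a measure of leukocyte RNA alone. The part of these marker transcripts in the class I levels of either set was not tested.

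The order of the classes differed between the sets. Within set 2, luminal-like cells held 383 CPM of H2-K1, below basal-like (819.5, 779.9 to 861), proximal or urethral luminal-like (886, 852 to 922), fibroblast-like (1142, 1091 to 1195), smooth muscle-like (1721, 1602 to 1845), endothelium-like (3132, 3053 to 3213) and leukocyte-like cells (3534, 3451 to 3619). In set 1 luminal-like cells had the highest H2-K1 of the 6 classes in summed UMIs, but with every cell weighing the same proximal or urethral luminal-like cells were above them (log2 0.043). For Psmb8 the order in set 2 was luminal-like (7.72 CPM), basal-like (12.3, 7.86 to 18.2), proximal or urethral luminal-like (56.8, 48.2 to 66.5), fibroblast-like (87.7, 74 to 103), smooth muscle-like (311, 262 to 366), leukocyte-like (379.6, 353 to 408) and endothelium-like (395, 367 to 424), from the lowest to the highest. The intervals of luminal-like and basal-like, of smooth muscle-like and leukocyte-like and of leukocyte-like and endothelium-like cells overlapped, and Psmb8 in basal-like against luminal-like cells turned to a log2 ratio of -0.31 with a doubled margin of the marker scores. For H2-K1 in set 2 those of basal-like and proximal or urethral luminal-like cells overlapped.

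B2m was an exception to this order in set 2. It was 3017 (3009 to 3025) CPM in luminal-like and 3062 (2985 to 3141) CPM in leukocyte-like cells, which did not differ beyond counting error, and 594 (561 to 629) CPM in basal-like cells. Set against luminal-like cells of set 2, leukocyte-like cells had 9 of 10 genes higher (background 16.1%) and fibroblast-like cells 9 of 10 (background 18.4%), with B2m as the gene that was not higher in either class. The median log2 ratios were 2.97 and 2.16, where those of all genes were -0.51 and -0.26. Basal-like cells had 3 higher (background 22.8%) and 2 lower (background 38.6%), of which Nlrc5 rested on 1 UMI, Psmb8 on 24 and the lower Tap1 on 6 in basal-like cells. Proximal or urethral luminal-like cells had 5 higher (background 17%) and 2 lower (background 21.3%), or 8 and 0 when classes came from clusters.

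**Figure D2:**
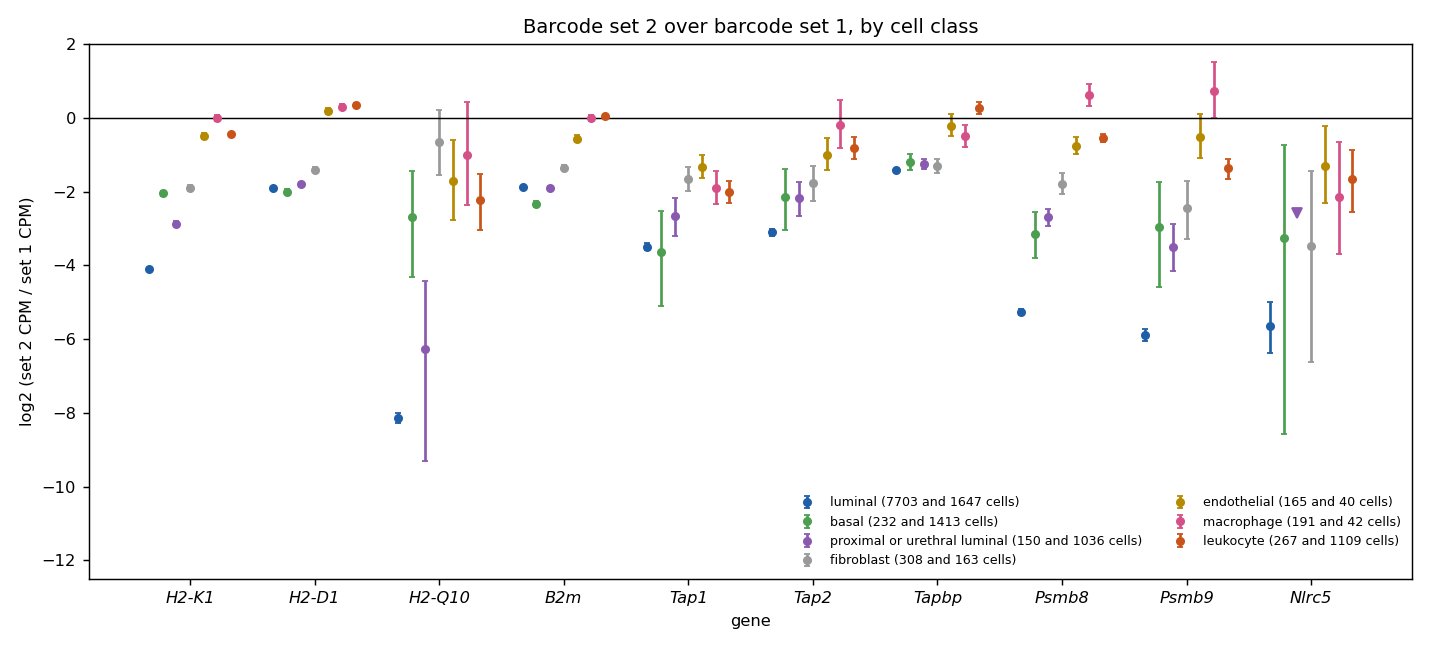
Log2 ratio of the CPM in barcode set 2 to that in barcode set 1 for each gene in 7 cell classes, with numbers of cells in sets 2 and 1 in the legend. Bars are exact 95% intervals and the triangle is an upper bound, since no Nlrc5 UMI was counted in proximal or urethral luminal-like cells of set 2. Luminal-like cells run from -1.41 for Tapbp to -8.14 for H2-Q10, whereas macrophage-like cells lie at 0.00 for H2-K1 and B2m. The shares of luminal subgroups differed between the sets.

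At the level of single cells, each cell was thinned to 3000 UMIs so that depth did not set the share of cells with a UMI. In luminal-like cells the share with a Psmb8 UMI was 48.4% (46 to 50.9%) in set 1 and 2.26% (1.94 to 2.62%) in set 2, and with a Psmb9 UMI 23.7% (21.6 to 25.8%) and 0.512% (0.364 to 0.70%). H2-K1 was seen in 99.3% (98.8 to 99.7%) and 60.8% (59.7 to 61.9%) of luminal-like cells and B2m in 88.4% (87.7 to 89.1%) of those of set 2. Without thinning the shares for Psmb8 were 92.5% and 11%. For comparison, 73.3% (70.1 to 76.2%) and 60.3% (53.8 to 66.6%) of leukocyte-like cells held a Psmb8 UMI after thinning. H2-Q10 was seen in 32.5% (30.2 to 34.8%) of luminal-like cells of set 1 and in 0.578% (0.42 to 0.775%) of those of set 2. Thinning left out 17 and 89 luminal-like and 271 and 30 leukocyte-like cells of sets 1 and 2.

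Free RNA from broken cells can place a few UMIs in cells that do not make a gene. Of the 7 leukocyte markers, 5 (Ptprc, Laptm5, Coro1a, Cd53 and Rac2) were taken after the data were seen, leaving out Srgn and Cytip. These 5 had summed levels of 7.93 and 2.02 CPM in the luminal-like cells of sets 1 and 2, which is 0.252% and 0.0894% of their level in leukocyte-like cells. All 7 stood at 38.0 and 6.99 CPM in luminal-like cells, against 7421 and 5157 CPM in leukocyte-like cells. Psmb8 in luminal-like cells of set 2 was at 2.03% of its level in leukocyte-like cells and Nlrc5, on 20 and 14 UMIs, at 1.67%. The part of free RNA in these levels was not tested. Reporter RNA was found in leukocyte-like cells at 58 CPM in set 1 and 547 CPM in set 2.

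Other genes of the pathway were lower in luminal-like cells of set 2 as well, although not uniformly. Of 13 other class I heavy chain genes 11 were in the table, and 10 of these were lower, with a median log2 ratio of -2.78. H2-Q7 was 1.34 against 562 CPM (log2 -8.71, -8.9 to -8.52), H2-T23 150.0 against 508 CPM (log2 -1.76, -1.79 to -1.74) and H2-T22 22.4 against 128 CPM (log2 -2.51, -2.57 to -2.46). H2-Q1 had the highest ratio of the list, on 13 and 6 UMIs.

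Of 11 genes of peptide supply and loading 8 were lower (median -1.45). The chaperone Calr was 847 against 2388 CPM (log2 -1.5, -1.51 to -1.48), the disulfide isomerase Pdia3 382 against 1211 CPM (log2 -1.67, -1.68 to -1.65) and the chaperone Canx 228 against 342 CPM (log2 -0.59, -0.61 to -0.56). The 3 that were not lower were the standard subunits Psmb5, Psmb6 and Psmb7.

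Of 19 genes of transcription and interferon signalling, 14 were lower and 0 higher (median -0.90). Rela, a subunit of NF-kappaB, was 77.3 against 142 CPM, the kinase Jak1 47.8 against 88.5 CPM and the interferon gamma receptor chain Ifngr1 16.6 against 57.7 CPM. Rfxank had the highest ratio (log2 0.27, 0.08 to 0.45) and Ciita, the class II activator, the lowest, on 3 and 31 UMIs. The interferon-responsive factor Irf1, named after its values were seen, was 9.25 against 51.7 CPM (log2 -2.48, -2.57 to -2.39).

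Of 10 interferon-induced genes 9 were lower (median -3.44). The chemokine Cxcl10 was 52.8 against 211 CPM (log2 -2.0, -2.04 to -1.96), the GTPase Iigp1 1.47 against 60.4 CPM (log2 -5.36, -5.55 to -5.17) and the chemokine Cxcl9, with the lowest ratio, 0.591 against 41.5 CPM (log2 -6.13, -6.44 to -5.84). Socs1, an inhibitor of the pathway, was not lower (log2 0.20, 0.05 to 0.34). The 4 class II genes were lower (median -8.26), with the invariant chain Cd74 at 9.56 against 3831 CPM (log2 -8.65, -8.72 to -8.58).

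Interferon gamma itself moved with the sets. Ifng was 83.6 CPM in leukocyte-like cells of set 1, with 141 CPM in Cd8 T-cell-like and 117 CPM in innate-like cells, against 3.58 CPM in leukocyte-like cells of set 2. Set 2 held 8 Cd8 T-cell-like, 10 other T-cell-like and 6 innate-like cells, against 464, 200 and 156 in set 1. The 2 values for leukocyte-like cells thus come from a different mix of cells. Leukocyte-like cells made up 18.0% of the cells of set 1 and 2.89% of those of set 2. The part of these differences in the lower class I levels of set 2 was not tested.

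The question was next whether class I genes followed the lineage reporter inside a set. Cells were called EGFP-high at 20 or more reporter UMIs per 10000 and EGFP-low under 2 per 10000. In set 1, EGFP-high basal-like cells (302 cells, 706 CPM of the transgene) were compared with EGFP-low ones (1020 cells, 101 CPM). B2m was 5342 CPM (5277 to 5407) in EGFP-high, 4503 (4379.6 to 4629) in intermediate and 2035 (2010.5 to 2059) in EGFP-low basal-like cells, a log2 ratio of 1.39 (1.37 to 1.42) between the outer groups. H2-D1 followed the same order with 6242 CPM (6172 to 6313), 4761 (4634 to 4891) and 2429 (2402 to 2456) (log2 1.36, 1.34 to 1.38), as did H2-K1 with 5400.3 CPM (5335 to 5466), 4314 (4193 to 4437) and 2560.5 (2533 to 2588) (log2 1.08, 1.05 to 1.1).

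The remaining genes were closer between the groups of basal-like cells. Tap1 was 57.8 against 31.7 CPM in EGFP-high and EGFP-low cells (log2 0.87, 0.64 to 1.09), Psmb9 28.5 against 16.1 CPM (log2 0.82, 0.50 to 1.13), Tapbp 286 against 171 CPM (log2 0.74, 0.65 to 0.84) and Psmb8 147 against 94.9 CPM (log2 0.63, 0.50 to 0.76). Tap2 had a log2 ratio of 0.72 (0.48 to 0.97) and Nlrc5 one of 0.51 (-0.16 to 1.16), whose interval included no difference. In all, 8 of 10 genes were higher in EGFP-high basal-like cells, where 4.01% of all genes were higher, and the median log2 ratio was 0.78 against -0.08 for all genes. The gene on the low side was H2-Q10, at 7.38 against 20.1 CPM (log2 -1.45, -1.99 to -0.94), where 7.04% of all genes were lower. This low ratio of H2-Q10 was not stable, for it became 0.49 when classes came from clusters.

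Beside these ratios, the 5 leukocyte markers other than Srgn and Cytip stood at 7.17 CPM in EGFP-high and 9.13 CPM in EGFP-low basal-like cells. With Srgn and Cytip, which epithelial cells also held, the 7 markers stood at 29.1 and 24.1 CPM with none at 0 in the class, and median depth was 13414.5 and 10602 UMIs. Over all basal-like cells of set 1 the 6 fibroblast markers stood at 2617 CPM, with 0 of them at 0, and they were not counted by EGFP level. The part of the leukocyte and fibroblast markers in the ratios was not tested. Of the interferon-induced genes 5 of 10 were higher, led by Cxcl10 with 141 against 66.1 CPM, and 1 lower, and of the 19 genes of transcription and signalling 3 were higher and 1 lower (median -0.01 over 18 with a ratio). Of the other heavy chains, 5 of 9 were higher, including H2-Q7 with 1004 against 420.0 CPM, and so were 4 of 4 class II genes.

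In luminal-like cells of set 1 the heavy and light chains were at least 1.5 times higher in EGFP-high cells, and the processing genes differed by less. Between 238 EGFP-high and 1310 EGFP-low cells, B2m was 18716 CPM (18625 to 18808) against 8968 (8939 to 8997) (log2 1.06, 1.05 to 1.07), H2-D1 5619 against 3069 CPM (log2 0.87, 0.86 to 0.89) and H2-K1 9473 against 5996 CPM (log2 0.66, 0.65 to 0.67). H2-Q10 was 1371 against 617 CPM (log2 1.15, 1.12 to 1.18). The log2 ratios were 0.00 (-0.06 to 0.06) for Psmb8, 0.08 (-0.02 to 0.18) for Psmb9, -0.13 (-0.27 to 0.01) for Tap2 and 0.38 (0.27 to 0.50) for Tap1. In total 4 of 10 genes were higher (background 5.54%) and 0 lower (background 13.7%). The 7 leukocyte markers stood at 33.0 CPM in EGFP-high and 38.3 CPM in EGFP-low luminal-like cells, and the transgene at 712 and 33.5 CPM.

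Over all luminal-like cells of set 1, class II genes went the other way. Cd74 was 2344 in EGFP-high against 4252 CPM in EGFP-low luminal-like cells (log2 -0.86, -0.88 to -0.84), and 4 of 4 class II genes were lower (median -0.79), whereas 4 of 4 were higher in EGFP-high basal-like cells (median 0.82). Of the interferon-induced genes 6 of 10 were higher in EGFP-high luminal-like cells, with Cxcl9 at 90.1 against 32.3 CPM (log2 1.48, 1.35 to 1.61) and Iigp1 at 59.4 against 55.6 CPM (log2 0.10, -0.05 to 0.24). Both lists changed direction between the luminal subgroups described next. In Msmb cells 0 of 4 class II genes were higher and 4 lower in EGFP-high cells (median -2.08), and 1 of 10 interferon-induced genes was higher and 5 lower (median -0.59). In Tgm4 cells 4 of 4 class II genes were higher (median 1.31) and 9 of 10 interferon-induced genes (median 2.08), and in luminal-like cells outside the subgroups 0 (median -0.23) and 10 (median 1.38).

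The luminal groups differed in composition, since Msmb-expressing cells made up 58.8% of EGFP-high and 26.6% of EGFP-low luminal-like cells of set 1. Within Msmb luminal cells (140 EGFP-high and 348 EGFP-low) the log2 ratios were 0.66 (0.65 to 0.67) for B2m, 0.50 (0.48 to 0.52) for H2-D1, 0.23 (0.22 to 0.24) for H2-K1 and 0.13 (0.09 to 0.16) for H2-Q10, so the ratios of the heavy chains and of B2m were smaller than over all luminal-like cells. Psmb8 (log2 -0.55, -0.64 to -0.47), Psmb9 (log2 -0.59, -0.72 to -0.47), Tap1 (log2 -0.50, -0.65 to -0.36) and Tap2 (log2 -0.56, -0.75 to -0.38) were below 0 there. The count was then 1 gene higher (background 5.35%), B2m, and 1 lower (background 6.3%), Psmb9.

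Within Tgm4 luminal cells (33 EGFP-high and 456 EGFP-low) the values were larger, with 6 of 10 genes higher (background 4.98%), among them Nlrc5 on 7 UMIs. B2m was 14256 against 5809 CPM (log2 1.3, 1.27 to 1.32), H2-D1 3403 against 1637 CPM (log2 1.06, 1.0 to 1.11) and H2-Q10 231 against 18.6 CPM (log2 3.63, 3.36 to 3.9). Luminal-like cells outside the subgroups (45 and 142 cells) had 5 genes higher (background 8.15%). Tap1, below 0 in Msmb cells, was at 0.93 (0.55 to 1.29) in Tgm4 cells and 0.82 (0.54 to 1.1) outside the subgroups. Psmb8 (log2 0.31, 0.16 to 0.45) and Psmb9 (log2 0.36, 0.11 to 0.60) were above 0 outside the subgroups. In Tgm4 cells their intervals included no difference, as did those of Tap2 in both groups. B2m was higher in each of these 3 subgroups, and H2-D1 and H2-K1 had log2 ratios above 0 in each. These comparisons within subgroups were added after the data were seen.

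Proximal or urethral luminal-like cells of set 1 (171 EGFP-high and 795 EGFP-low) gave 5 of 10 genes higher (background 4.32%) and 0 lower (background 9.93%), led by H2-Q10 (log2 1.21, 1.05 to 1.37) and B2m (log2 1.13, 1.11 to 1.14), with Psmb8 at 0.16 (0.08 to 0.23). No gene of the 10 was higher there when classes came from clusters, so the result rested on how these cells were assigned. The 7 leukocyte markers stood at 192 CPM in EGFP-high and 109 CPM in EGFP-low cells of this class, and the 5 other than Srgn and Cytip at 3.32 and 12 CPM.

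In set 2 the contrast took another form, and reporter RNA in leukocyte-like cells there (547 CPM) lay in the intermediate range. Nearly all luminal-like cells were EGFP-high (7414 cells), and 132 were EGFP-low. H2-K1 was 376 in EGFP-high and 556 CPM in EGFP-low cells (log2 -0.56, -0.63 to -0.49), while H2-D1 was 966 against 648 CPM (log2 0.58, 0.51 to 0.64), so the classical heavy chains went opposite ways. The largest differences were those of the immunoproteasome, with Psmb8 at 6.8 (6.4 to 7.21) against 31 (25.1 to 37.9) CPM (log2 -2.19, -2.49 to -1.87) and Psmb9 at 1.45 (1.27 to 1.65) against 15.3 (11.3 to 20.4) CPM (log2 -3.4, -3.86 to -2.92). In all 5 of 10 genes were lower (background 20.4%), namely H2-Q10, Tap2, Psmb8, Psmb9 and, on 1 UMI in EGFP-low cells, Nlrc5, and 0 higher (background 23.1%). These 5 lay under 10 CPM over the luminal-like cells of set 2, below the limit of the genes in the background.

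EGFP-low luminal-like cells of set 2 were 80.3% Tgm4 cells, against 8.28% of the EGFP-high ones. Within Tgm4 luminal cells of set 2 (614 EGFP-high and 106 EGFP-low) 1 of 8 genes was higher (background 18.7%) and 2 lower (background 20.6%), and the log2 ratios were -1.63 (-2.05 to -1.21) for Psmb8, -2.52 (-3.18 to -1.86) for Psmb9, -0.44 (-0.53 to -0.35) for H2-K1, 0.57 (0.49 to 0.65) for H2-D1 and 0.65 (0.61 to 0.68) for B2m, with the same signs as over all luminal-like cells. The 7 leukocyte markers stood at 6.56 CPM in EGFP-high and 21.9 CPM in EGFP-low luminal-like cells of set 2, the 5 other than Srgn and Cytip at 1.93 and 3.59 CPM, and their part in these ratios was not tested. EGFP-low luminal-like cells held 556 CPM of H2-K1 in set 2 against 5996 CPM in set 1, and 2360.5 against 8968 CPM of B2m, but Tgm4 cells were 34.8% of these cells in set 1. Among EGFP-low Tgm4 cells alone, H2-K1 was 494 CPM in set 2 against 3369.6 CPM in set 1, and B2m 2549.6 against 5809 CPM. Basal-like cells of set 2 had too few EGFP-low cells, and 105 EGFP-high cells were set against 85 intermediate ones. There B2m had a log2 ratio of 0.29 (0.07 to 0.50), H2-D1 0.23 (0.06 to 0.40) and H2-K1 0.06 (-0.11 to 0.23). The 3 genes counted as higher (background 18.3%) were Tap1, Tap2 and Psmb8, with 5, 9 and 20 UMIs in EGFP-high cells, and 0 of 7 were lower (background 7.74%).

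**Figure D3:**
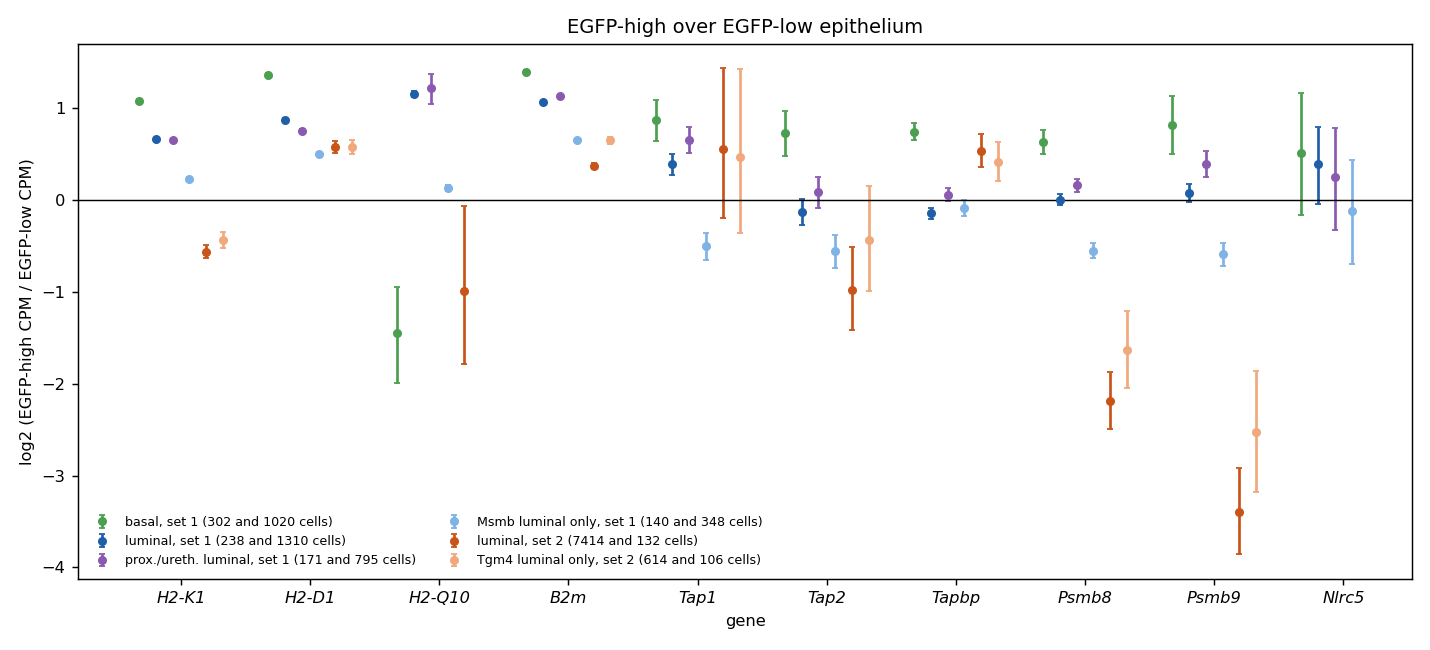
Log2 ratio of the CPM in EGFP-high to that in EGFP-low cells for each gene, in 3 epithelial classes of barcode set 1, in luminal-like cells of barcode set 2 and within 1 luminal subgroup of each set. Bars are exact 95% intervals, numbers of cells are in the legend, and points with intervals wider than 3 are left out. In basal-like cells of set 1 all genes but H2-Q10 lie above 0, and Psmb8 and Psmb9 lie lowest in luminal-like cells of set 2.

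Among luminal subgroups of set 1, most of the 10 genes were highest in Msmb cells and lowest in Tgm4 cells. Msmb-expressing cells (534 cells), which make a secretory protein of the gland, held 1771 CPM (1753 to 1789.7) of H2-Q10 against 87.8 CPM in all other luminal-like cells (log2 4.34, 4.28 to 4.39). B2m was 15996 against 7789.7 CPM (log2 1.04, 1.03 to 1.05), Tap1 116 against 49.2 CPM (log2 1.24, 1.14 to 1.33) and Psmb9 163 against 81.7 CPM (log2 1.0, 0.92 to 1.07). With H2-K1 (log2 0.82, 0.81 to 0.83) and H2-D1 (log2 0.69, 0.68 to 0.70) this made 6 of 10 genes higher (background 9.25%) and 0 lower (background 26.4%), and Tapbp, at -0.28 (-0.32 to -0.23), lay on the other side of 0. The related heavy chain H2-Q7 was 944 against 311 CPM (log2 1.6, 1.57 to 1.64), a smaller difference than that of H2-Q10.

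Of the interferon-induced genes 10 of 10 were higher in Msmb cells (median 1.37), led by Iigp1 with 126 against 17.2 CPM, and so were 4 of 4 class II genes. The 7 leukocyte markers stood at 35.5 CPM in Msmb and 46.4 CPM in Tgm4 luminal cells, and their part in these ratios was not tested. Median depth was 36378.5 UMIs in Msmb and 25325.5 in Tgm4 cells.

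Tgm4-expressing cells (512 cells), named for a prostate transglutaminase, had 8 of 10 genes lower (background 7.87%) and 0 higher (background 8.31%). H2-K1 was 3627 against 7688 CPM (log2 -1.08, -1.1 to -1.07), H2-D1 1826 against 4176 CPM (log2 -1.19, -1.21 to -1.17), B2m 6740.1 against 12585 CPM (log2 -0.90, -0.91 to -0.89) and Psmb8 174 against 339 CPM (log2 -0.97, -1.03 to -0.90). Cells with Krt6a and Clu (402 cells) had 0 genes higher (background 14.4%) and 4 lower (background 13.7%), namely H2-Q10 (log2 -4.84, -4.99 to -4.7), Tap1 (log2 -0.90, -1.04 to -0.77), Psmb9 (log2 -0.75, -0.86 to -0.65) and B2m (log2 -0.70, -0.71 to -0.69). Tapbp was 415 against 279 CPM in them (log2 0.57, 0.52 to 0.62), just under the limit of 1.5 times. Msmb and Tgm4 cells are each part of the group the other was compared with, so their ratios are not independent.

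In set 2 the light chain varied more among the luminal subgroups than the classical heavy chains did. Cells with seminal vesicle genes (221 cells) held 11425 CPM (11338 to 11512) against 2715 CPM in other luminal-like cells (log2 2.07, 2.06 to 2.08), and cells with Krt6a and Clu (307 cells) 9087 CPM (9017 to 9157) against 2748 CPM (log2 1.73, 1.71 to 1.74). B2m was lower in Mt4 and Gulo cells (1519 cells), at 1661 (1647 to 1674) CPM (log2 -1.02, -1.03 to -1.0), in alpha-defensin cells (300 cells), at 1902 (1869 to 1936) CPM (log2 -0.69, -0.71 to -0.66), and in proliferating cells (224 cells), at 1109 (1084 to 1135) CPM (log2 -1.48, -1.51 to -1.45). The level of B2m in the cells with seminal vesicle genes was thus as high as in luminal-like cells of set 1 (11045 CPM), while their H2-K1 was 369.5 CPM and their H2-D1 1081 CPM.

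Over the subgroups of at least 50 cells in set 2, H2-K1 lay between 291 CPM in alpha-defensin cells and 521 CPM in cells with Krt6a and Clu, and H2-D1 between 793 CPM in proliferating cells and 1230.0 CPM in cells with Krt6a and Clu. Psmb8 and Psmb9 were higher in Tgm4 cells (814 cells), at 14.4 (12.8 to 16.1) against 6.8 CPM (log2 1.08, 0.89 to 1.27) and 5.44 (4.47 to 6.55) against 1.42 CPM (log2 1.94, 1.59 to 2.28). By count, 3 genes were higher and 1 lower in Tgm4 cells (background 7.01% and 5.59%), 2 higher and 1 lower in cells with Krt6a and Clu (8.07% and 8.79%), and 1 higher and 2 lower in cells with seminal vesicle genes (2.64% and 9.93%). Mt4 and Gulo cells had 0 higher and 5 lower (3.18% and 5.95%), alpha-defensin cells 0 and 3 (2.41% and 8.38%), and proliferating cells 0 and 1 (10.7% and 5.27%). H2-Q10 was sparse in these subgroups of set 2, with 18 UMIs in Mt4 and Gulo cells and 3 in alpha-defensin cells. Over the luminal-like cells of set 2, H2-Q10, Tap1, Tap2, Psmb8, Psmb9 and Nlrc5 lay under 10 CPM. The background holds no genes under that limit, so these counts and their background cover unlike levels.

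The link of H2-Q10 with Msmb cells was seen in set 2 as well, although set 2 held 25 such cells, too few for a ratio. These cells carried 238 of the 450 UMIs of H2-Q10 in luminal-like cells of set 2, or 368 CPM (322 to 417), where no subgroup of at least 50 cells exceeded 2.0 CPM. Their H2-K1 was 1301 (1214 to 1392) CPM and their B2m 7430.4 (7222 to 7643) CPM, against 383 and 3017 CPM over all luminal-like cells of set 2, while Psmb9 was 4.63 CPM, far from the 163 CPM of Msmb cells of set 1. Their EGFP stood at 7007 CPM, against 1551 CPM in Msmb cells of set 1. These cells were described after their values were seen.

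**Figure D4:**
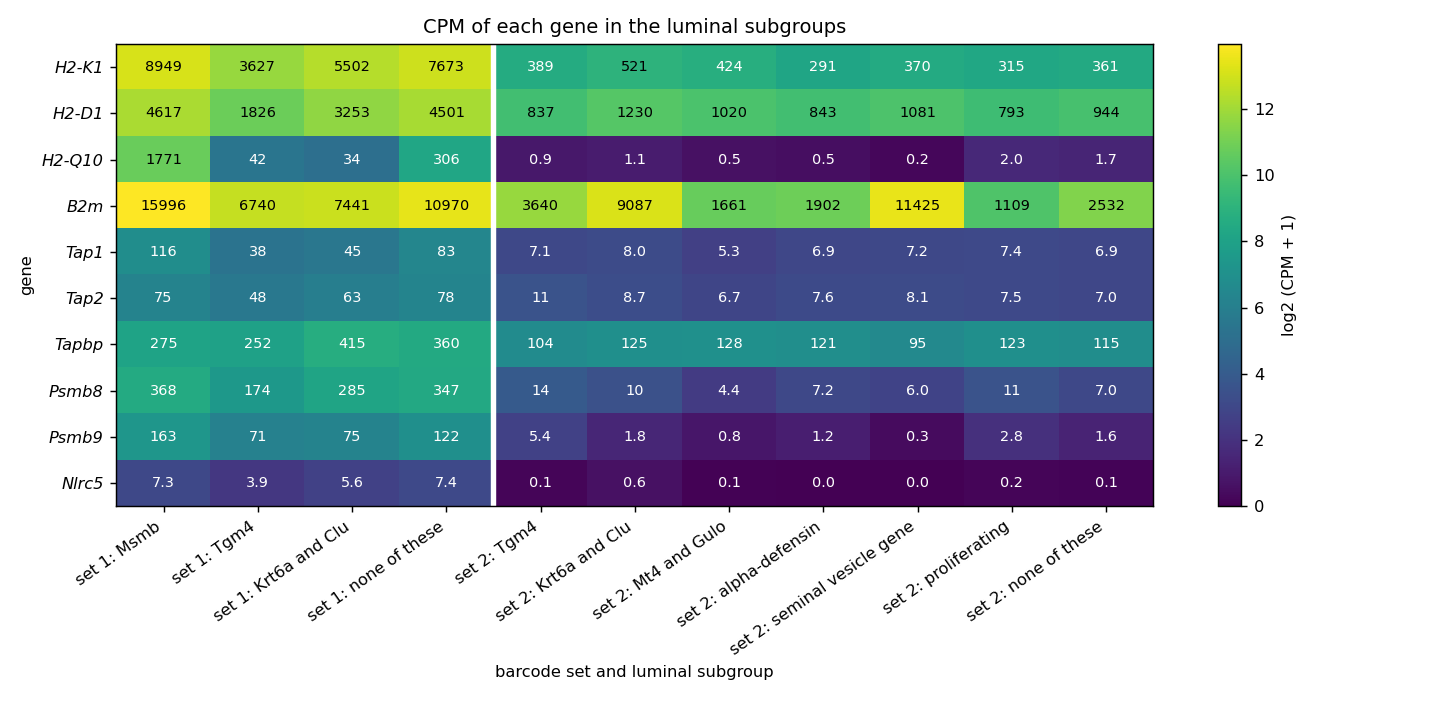
CPM of each gene (number in each cell, colour as log2 of CPM + 1) in the luminal subgroups of barcode set 1 (left of the white line) and barcode set 2 (right). H2-Q10 stands out in Msmb cells of set 1, and B2m in cells with seminal vesicle genes or with Krt6a and Clu of set 2. Subgroups with fewer than 50 cells are not shown.

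The profiles of the 10 genes over 18 class-by-set groups were alike to different degrees. The groups were the classes of at least 30 cells, with leukocyte-like cells taken by subclass. Pearson's r of a gene's log2(CPM + 10) with the mean of the 10 genes was 0.957 for Psmb8, 0.939 for Tap2, 0.932 for Psmb9, 0.917 for H2-K1, 0.902 for Tap1, 0.885 for H2-D1 and 0.784 for Nlrc5, and it was lower for B2m (0.690), H2-Q10 (0.653) and Tapbp (0.632). Each gene is part of that mean. Among 10170 other genes with at least 20 CPM in any group, Pla2g16 (r = 0.863), Sppl2a (0.807), Fam69a (0.784), Shisa5 (0.777) and AW112010 (0.754) had the profiles most like the mean. The groups share 2 libraries, and these correlations are a description only.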

How the data were processed

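Droplet single-cell RNA sequencing (10x, 3′ chemistry) of 2 samples gave 1 table of genes by cells. Per the labels and the study's methods, the reads were aligned to mm10 with added transgene sequences and counted with Cell Ranger 3.1.0. The authors deposited natural log values, ln(1 + 10000 times the UMIs of a gene over the UMIs of the cell), from which whole UMI counts were recovered for 100% of values (tolerance 0.001). Totals were 134850345 UMIs over 6332 cells (set 1) and 187280119 over 9410 cells (set 2). Scrublet in scanpy 1.11.5 (score limit 0.25, taken from an earlier analysis of these data) left out 155 and 175 cells as doublets.

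Classes came from marker scores, each the mean of a gene's log value over its 99.8th percentile. The best score had to reach 0.1 and lead the next by 0.05 (luminal subgroups 0.3). The limit of 0.1 and the use of subtype markers for the epithelial score were set after a first assignment left many cells of set 2 unclassed. CPM, exact Poisson intervals and exact conditional binomial intervals of ratios were computed with Python 3.11.15, numpy 2.4.6, pandas 2.3.3 and SciPy 1.17.1, and the scripts were tested on simulated data. Ratios needed 50 cells on each side. The limit was 30 for EGFP ratios within luminal subgroups and for the set ratios of endothelium-like and macrophage-like cells. A side with 0 UMIs was set to a floor of 3 UMIs, and no ratio was made with both sides at or under 3. Background shares cover genes with at least 10 CPM over both sides, a limit that was not set for the 10 genes.

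All 10 genes are named. Of other pathway lists the genes with the highest levels and the highest and lowest ratios are named, and of similar genes the 5 with the highest Pearson r. The genes and lists were chosen with earlier results of these data known. Each group held 1 library, so no test was made. Alternatives were Leiden clusters (igraph 0.11.9, resolution 1), a margin of 0.1, doublets kept, CPM without genes over 1% of UMIs, equal weight per cell, epithelial cells without leukocyte-marker UMIs, EGFP limits of 5 and 50 per 10000, 0 against 5 or more EGFP UMIs, and thinning to 6000 UMIs. Promoter sequences came from RefSeq (GRCm38.p6).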

Additional observations from a re-analysis of the deposited data

Results flagged for a closer look

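Some ratios had opposite signs in the 2 barcode sets. Each set is 1 library, and the differences between sets were not tested. Between EGFP-high and EGFP-low luminal-like cells, H2-K1 had a log2 ratio of 0.66 in set 1 and -0.56 in set 2, H2-Q10 one of 1.15 and -0.99, and Tapbp one of -0.15 and 0.53.

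Tgm4 luminal cells, against other luminal-like cells of their set, gave for B2m a log2 ratio of -0.90 within set 1 and 0.31 within set 2, with -0.58 and 0.59 for Tap2, -0.97 and 1.08 for Psmb8, and -0.88 and 1.94 for Psmb9. The group they were compared with differed between the sets, since Msmb cells numbered 534 of 1647 luminal-like cells in set 1 and 25 of 7703 in set 2.

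Luminal cells with Krt6a and Clu gave for H2-K1 -0.34 within set 1 and 0.47 within set 2, with -0.16 and 0.38 for H2-D1, -0.70 and 1.73 for B2m, and -0.067 and 0.41 for Psmb8.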

How the results depend on the processing

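No paired analysis was possible because the labels name 1 library of each kind. Of 2828 values computed under an alternative, 2016 stayed within the 95% counting interval of the reported value (counts of genes, within 1.5 times), 798 moved beyond it and 14 ratios changed sign. In the alternatives run, the lower genes of set 2 numbered 10 in luminal-like, basal-like and proximal or urethral luminal-like cells and 9 to 10 in fibroblast-like cells, and the higher genes of EGFP-high basal-like cells of set 1 numbered 6 to 9. The cause of the changes below was not tested.

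With classes from clusters, EGFP-high cells of set 1 had 0 lower genes (from 1) in basal-like and 0 higher (from 5) in proximal or urethral luminal-like cells, proliferating luminal cells had 1 higher (from 0), leukocyte-like cells of set 1 had 3 higher than luminal-like (from 5), and proximal or urethral luminal-like cells of set 2 had 8 higher (from 5) and 0 lower (from 2). H2-Q10 then turned to 0.49 in EGFP-high basal-like cells, -0.22 in EGFP-high proximal cells of set 1 and 3.14 in proximal against luminal-like cells of set 2. Tapbp turned to 0.061 in EGFP-high luminal-like cells of set 1 and to -0.075 in leukocyte-like cells of set 2 against set 1, where H2-D1 turned to -0.069. H2-D1 also turned to 0.088 in Krt6a and Clu cells and to -0.012 in proximal against luminal-like cells of set 1.

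With the doubled margin, EGFP-high basal-like cells of set 1 had 0 lower genes (from 1), Krt6a and Clu cells of set 1 had 1 higher (from 0) and proliferating cells 3 (from 0), H2-D1 turned to -0.0057 in EGFP-high basal-like cells of set 2, and Psmb8 to -0.31 in basal-like against luminal-like cells of set 2. Without genes over 1% of UMIs, leukocyte-like cells of set 1 had 3 higher genes than luminal-like cells (from 5). With equal weight per cell, that count was also 3, EGFP-high basal-like cells of set 1 had 0 lower, EGFP-high luminal-like cells of set 2 had 1 higher (from 0), proliferating cells 1 higher, proximal or urethral luminal-like cells of set 2 had 1 lower (from 2), and H2-K1 turned to 0.043 in proximal against luminal-like cells of set 1.

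Without cells holding a UMI of the 7 leukocyte markers, EGFP-high proximal cells of set 1 had 3 higher (from 5) and 4 lower (from 0), with Tap1 at -0.31, Psmb8 at -0.83 and Psmb9 at -1.15, EGFP-high basal-like cells of set 2 had 1 higher (from 3), EGFP-high luminal-like cells of set 2 had 2 higher (from 0) and proliferating cells 1. Srgn, 1 of the 7, stood at 92.7 and 87.4 CPM in proximal cells of sets 1 and 2, so 5 markers were used in an alternative added after seeing the data, which gave 1 higher gene in EGFP-high luminal-like cells of set 2. With 0 against 5 or more EGFP UMIs, EGFP-high basal-like cells of set 1 had 0 lower genes and EGFP-high proximal cells 2 higher (from 5). Depth limited Nlrc5 and, in set 2, H2-Q10 and Psmb9, and 1 library per set limits each comparison between sets.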
